A study of Homo sapiens with 2 samples.

Results

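The endosomal sorting machinery of H1299, a line of human non-small cell lung cancer, was followed through 55 genes of the ESCRT, retromer, HOPS and CORVET, GARP and EARP complexes and of their partners. The genes were chosen by name as subunits of these complexes and were found by NCBI gene ID in both deposited tables among 27685 gene IDs in all. Each of the 55 was listed once in each table, and each was measured, that is, reached 1 TPM in either library, so no member was lost to the filter on low values. VPS22 is listed by RefSeq under its current symbol, SNF8. TPM is a transcript abundance scaled to transcript length and to the library's whole set of transcripts, and can therefore be compared between genes.

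RNA was sequenced from H1299 cells given 5 mM metformin (metformin, 1 library) and H1299 cells given none (control, 1 library). Cells of both were at the same range of passages, in the same serum-containing medium with antibiotics, and how long the drug was given is not stated in the sources used here. Metformin, a biguanide used against type 2 diabetes, is known as an inhibitor of mitochondrial complex I. The comparison asks which transcripts differ with the drug in this line. With 1 library per group there was no replicate check, no test was run and no p-value is given. A ratio is followed by its exact 95% counting interval, which covers the counting of reads only, not the variation between cultures.

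Depth was estimated at 31.7 M read pairs for the metformin library (6.40 Gb aligned) and at 28.7 M for control (5.80 Gb). Over single members the estimate ran from 195 to 8235 read pairs. Of the markers of the line, VIM and the keratins KRT8 and KRT18 were listed at 4962, 521 and 954 TPM in metformin and at 4378, 269 and 553 TPM in control. The epithelial markers EPCAM, CDH1 and KRT19 and the lung lineage markers NKX2-1, NAPSA and SFTPC were each under 1 TPM in both libraries, as were all 7 markers of leukocytes, endothelium and fibroblasts. CDH2 was listed at 19.1 TPM in metformin and 22.9 TPM in control.

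Membrane proteins marked with ubiquitin are gathered on endosomes by ESCRT-0, passed to ESCRT-I and ESCRT-II, and packed into inward buds that filaments of ESCRT-III cut off, after which the ATPase VPS4 takes the filaments apart. Cargo that escapes this route is returned by retromer and sorting nexins to the Golgi or the cell surface. CORVET and HOPS tether early and late endosomes to their targets before fusion, and GARP and EARP tether the vesicles that return. The same ESCRT-III filaments also close the midbody at the end of cell division, reseal the nuclear envelope and repair membranes.

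The machinery as a whole differed little between the libraries. On the log2(TPM + 1) scale, 0 of the 55 members were past 2-fold in either direction, beside 2.76% of the 14078 measured genes, and 0 were past 1.5-fold, beside 12.4% of them. No plain TPM ratio was past 1.5-fold either. The differences, metformin minus control, ran from -0.52 for VPS29 to 0.51 for CHMP4C, with a median of 0.06 over the members and of -0.08 over all measured genes. The median size of the difference was 0.15 over members and 0.23 over all measured genes. It was 0.21 over the 8656 measured genes whose mean TPM lay within the range of the members. Of those 8656 genes, 9.67% were past 1.5-fold in either direction. The summed TPM of the 55 genes was 3512 in metformin and 3496 in control. Above 0 lay 30 members and below it 25, against 40.3% of all measured genes above 0.

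**Figure D1:**
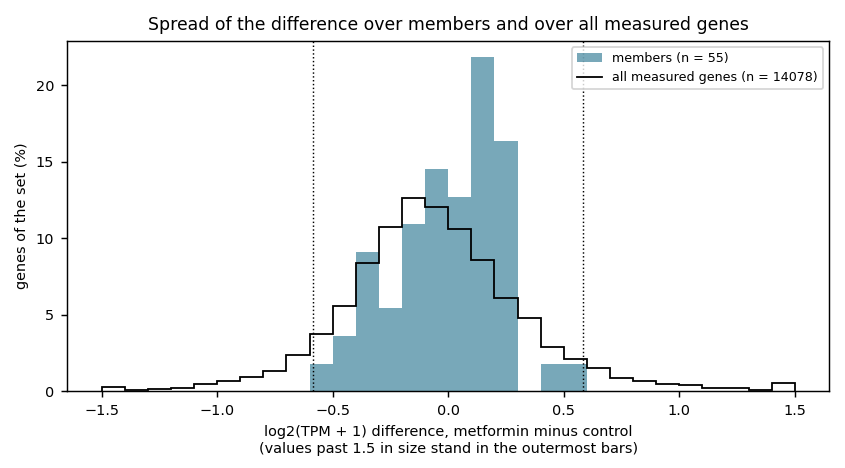
Histogram of the log2(TPM + 1) difference, metformin minus control, as the percent of each set per bin of 0.1, for the 55 members (filled) and the 14078 measured genes (line); dotted lines stand at 1.5-fold. The members lie between -0.52 and 0.51, inside both dotted lines, while 12.4% of all measured genes lie past them. The share is 9.67% over measured genes with a mean TPM in the range of the members.

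Within this narrow range the medians of the complexes ran from -0.18 for the sorting nexins to 0.18 for VPS8, which is specific to CORVET. Members of a complex could differ more, from -0.35 to 0.47 in ESCRT-I and from -0.42 to 0.51 in ESCRT-III. As reported, most ESCRT-III genes and the VPS4 ATPases stood slightly higher in metformin. VPS28 was higher and 3 VPS37 genes were lower within ESCRT-I, and VPS29 and most sorting nexins were lower. After correction for the GC and length of transcripts, the sorting nexins, ESCRT-I and retromer had medians of 0.01, 0.07 and 0.02. Before it they were at -0.18, -0.14 and -0.04. ESCRT-III was at 0.14 after it and 0.13 before, and all measured genes at -0.08 in both. Of the 55 counting intervals, 23 lay above a ratio of 1, beside 24.3% of the 13163 measured genes with such an interval, 18 below it, beside 42.5%, and 14 included it. The share of measured genes whose interval did not include 1 was 66.8%. Over the 8419 of those genes with a mean TPM in the range of the members, the shares were 25.2% and 48.8%, and intervals that did not include 1 made up 74.1%, so that such an interval is common at this depth.

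**Figure D2:**
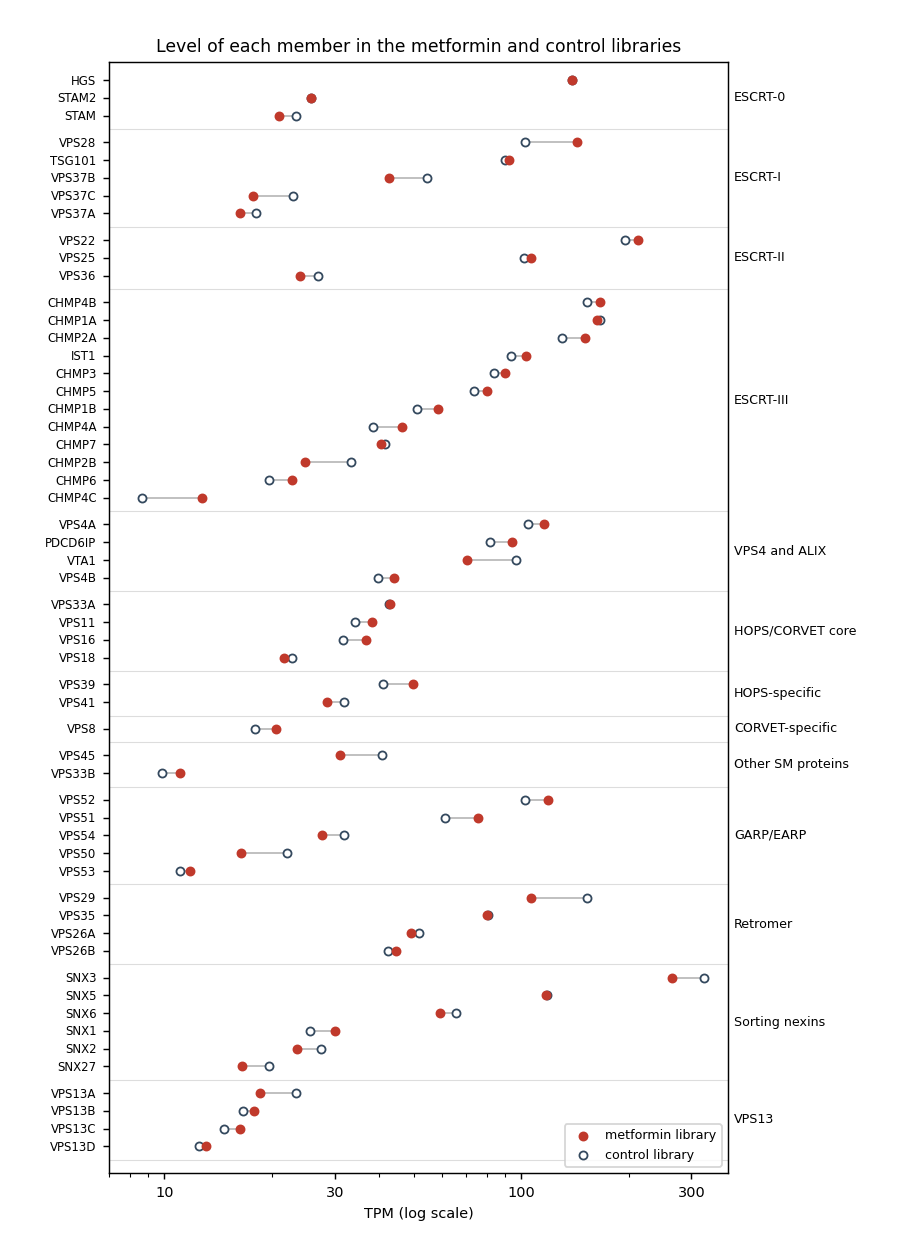
TPM of each of the 55 members on a log axis, in the metformin library (filled) and the control library (open), grouped by complex. SNX3 is the most abundant member and CHMP4C the least abundant in control, and paired points lie close together for most genes.

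In ESCRT-0, which binds ubiquitinated cargo at the early endosome, the scaffold HGS had 139 TPM in metformin and 139 TPM in control, a ratio of 0.9997 (95% counting interval 0.962 to 1.04). Its partners are much less abundant. STAM2 was at 25.8 TPM in both metformin and control, a ratio of 0.999 (0.936 to 1.07), and STAM, its paralogue, had 20.9 TPM in metformin and 23.4 TPM in control, a ratio of 0.894 (0.822 to 0.973). The intervals of HGS and STAM2 included 1, and that of STAM lay below it. With the GC and length trend removed, STAM turned from -0.15 to 0.02 on the log2 scale. HGS was then at -0.17 and STAM2 at 0.24.

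ESCRT-I links ubiquitin-bound cargo to the later complexes and its 5 members were split. VPS28, the subunit that contacts ESCRT-II, had 143 TPM in metformin and 103 TPM in control, a ratio of 1.39 (1.29 to 1.4998), the second highest of all members. TSG101, the ubiquitin-binding subunit also used by budding retroviruses, had 92.4 TPM in metformin and 90.3 TPM in control, a ratio of 1.02 (0.959 to 1.09). The VPS37 subunits, which help form the stalk, are interchangeable, and the 3 among the members stood lower in metformin. VPS37B, the most abundant of them, had 42.6 TPM in metformin and 54.3 TPM in control, a ratio of 0.784 (0.732 to 0.839). VPS37C had 17.7 TPM in metformin and 22.9 TPM in control, a ratio of 0.773 (0.695 to 0.860), and VPS37A had 16.3 TPM in metformin and 18.1 TPM in control, a ratio of 0.902 (0.826 to 0.985). The less abundant VPS37D, which is no member, had 7.20 TPM in metformin and 6.57 TPM in control, a ratio of 1.10 (0.864 to 1.39). After removal of a trend with GC content and transcript length fitted across all genes, VPS37B and VPS37C were at -0.48 and -0.49 on the log2 scale, VPS28 at 0.32, and VPS37A turned to 0.07.

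ESCRT-II bridges ESCRT-I to the filament subunit CHMP6. VPS22, a core subunit and the most abundant of the complex, had 213 TPM in metformin and 196 TPM in control, a ratio of 1.09 (1.05 to 1.13). VPS25, the subunit that binds CHMP6, had 106 TPM in metformin and 102 TPM in control, a ratio of 1.05 (0.971 to 1.12). VPS36, which binds membrane lipid and ubiquitin, was lower, with 23.9 TPM in metformin and 27.0 TPM in control, a ratio of 0.887 (0.824 to 0.954). On the log2 scale VPS36 was at -0.17, and at -0.0034 with the GC and length trend removed. VPS22 and VPS25 were then at 0.10 and -0.02.

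ESCRT-III had 9 of its 12 members above 0, beside 40.3% of all measured genes, and a median difference of 0.13, beside -0.08. Each of those 9 had a counting interval above 1, beside the 24.3% of measured genes given above. CHMP4C, which acts in the checkpoint that delays the final cut between daughter cells, was the least abundant ESCRT-III gene, with 12.7 TPM in metformin and 8.65 TPM in control. Its ratio of 1.47 (1.23 to 1.76) was the highest of the 55, although VPS28 had the highest difference with a pseudocount of 5 and with deposited FPKM, and rested on the fewest reads, an estimated 324 pairs in metformin and 195 in control. CHMP4B, the main filament subunit, had 166 TPM in metformin and 153 TPM in control, a ratio of 1.09 (1.04 to 1.14). CHMP4A, its paralogue, had 46.4 TPM in metformin and 38.4 TPM in control, a ratio of 1.21 (1.07 to 1.37). CHMP6, which starts CHMP4 filaments, had 22.8 TPM in metformin and 19.7 TPM in control, a ratio of 1.16 (1.02 to 1.33).

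Among the subunits that follow CHMP4 into the filament, CHMP2A had 151 TPM in metformin and 130 TPM in control, a ratio of 1.16 (1.08 to 1.24). Its paralogue CHMP2B, mutated in a familial dementia, went the other way, with 24.8 TPM in metformin and 33.4 TPM in control, a ratio of 0.741 (0.677 to 0.811), the lowest of ESCRT-III. CHMP3, the partner of CHMP2A in the filament, had 90.1 TPM in metformin and 83.8 TPM in control, and the read-through gene RNF103-CHMP3 on the same strand was at 0.0892 TPM in metformin and 0.0819 TPM in control. CHMP5, which binds the VPS4 cofactor VTA1, had 80.1 TPM in metformin and 73.8 TPM in control. These 2 genes were thus slightly higher, by 1.07-fold (1.03 to 1.13) and 1.09-fold (1.02 to 1.16).

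The subunits that recruit VPS4 differed as little. CHMP1A had 163 TPM in metformin and 167 TPM in control, a ratio of 0.978 (0.940 to 1.02), and CHMP1B, an intronless gene that lies within the span of GNAL on the same strand, had 58.5 TPM in metformin and 51.0 TPM in control, a ratio of 1.15 (1.08 to 1.22). IST1, which forms a joint filament with CHMP1B, had 103 TPM in metformin and 93.7 TPM in control, a ratio of 1.10 (1.06 to 1.14). CHMP7, which places ESCRT-III at the nuclear envelope, had 40.3 TPM in metformin and 41.4 TPM in control, a ratio of 0.974 (0.912 to 1.04). The count of ESCRT-III members above 0 was at least 9 under each of the 10 alternative settings. Changes of the pseudocount or of the filter on low values could not alter that count. The median was 0.14 with the GC and length trend removed.

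Disassembly rests on the AAA ATPases VPS4A and VPS4B, which had like ratios. VPS4A had 116 TPM in metformin and 104 TPM in control, a ratio of 1.11 (1.07 to 1.15), and VPS4B had 44.02 TPM in metformin and 39.6 TPM in control, a ratio of 1.11 (1.04 to 1.19). VTA1, the cofactor that stimulates VPS4, was lower, with 70.4 TPM in metformin and 96.7 TPM in control, a ratio of 0.728 (0.705 to 0.752). PDCD6IP, which encodes ALIX, a bridge from cargo and TSG101 to CHMP4, had 94.2 TPM in metformin and 81.8 TPM in control, a ratio of 1.15 (1.11 to 1.19). The ATPases and their cofactor therefore stood on opposite sides of control.

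**Figure D3:**
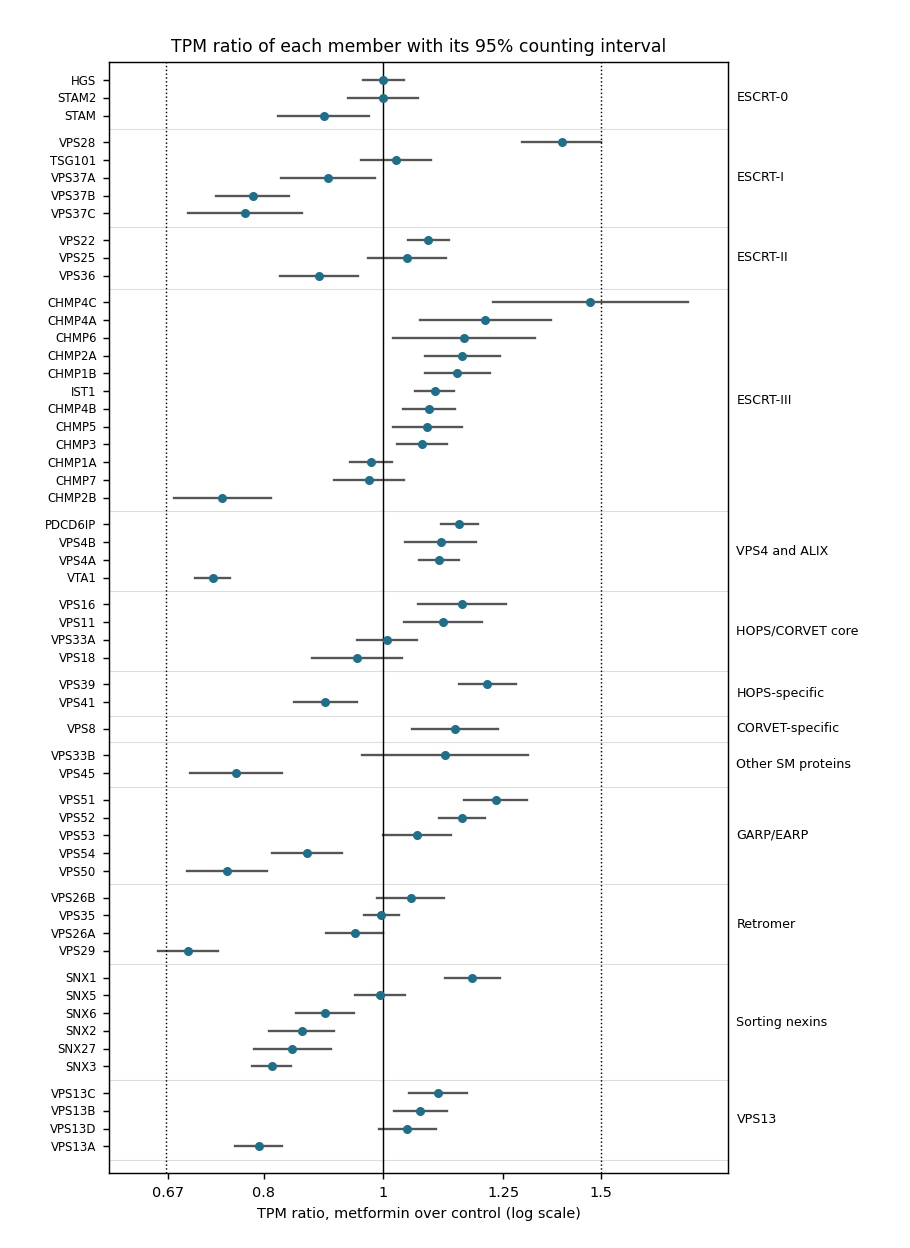
TPM ratio of each member, metformin over control, on a log axis with its exact 95% counting interval, grouped by complex; the solid line marks a ratio of 1 and dotted lines 1.5-fold in either direction. VPS28 and CHMP4C lie farthest to the right at 1.39 and 1.47, and VPS29, VTA1 and CHMP2B farthest to the left at 0.695, 0.728 and 0.741.

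The HOPS and CORVET tethers share a core of VPS11, VPS16, VPS18 and VPS33A. VPS11, a scaffold subunit, had 38.1 TPM in metformin and 34.1 TPM in control, a ratio of 1.12 (1.04 to 1.20). VPS16, which holds VPS33A in the complex, had 36.8 TPM in metformin and 31.8 TPM in control, a ratio of 1.16 (1.07 to 1.26). It overlaps PCED1A on the other strand and PTPRA on its own, which were listed at 45.1 and 95.4 TPM in metformin and at 31.7 and 82.0 TPM in control, and their part in its value was not tested. VPS18, the other scaffold subunit, had 21.7 TPM in metformin and 22.8 TPM in control, a ratio of 0.952 (0.875 to 1.04). VPS33A, the Sec1/Munc18-type protein that templates SNARE assembly, had 42.8 TPM in metformin and 42.5 TPM in control. The core was thus level or slightly higher, with a median difference of 0.08.

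The subunits that give each tether its identity were split. VPS39, which joins HOPS to late endosomes, had 49.6 TPM in metformin and 40.9 TPM in control, a ratio of 1.21 (1.15 to 1.28), whereas VPS41, at the other end of HOPS, had 28.6 TPM in metformin and 31.9 TPM in control, a ratio of 0.897 (0.847 to 0.951). VPS8, specific to CORVET, had 20.6 TPM in metformin and 18.0 TPM in control, a ratio of 1.14 (1.06 to 1.24). Without the GC and length trend VPS39 was at 0.21, VPS41 at -0.04 and VPS8 at 0.26 on the log2 scale. The median of all measured genes was then -0.08. Of the other Sec1/Munc18-type proteins, VPS33B, which works with VIPAS39 outside HOPS, had 11.0 TPM in metformin and 9.83 TPM in control, a ratio of 1.12 (0.961 to 1.31). VPS45, which serves fusion at early endosomes, was lower, with 31.0 TPM in metformin and 40.7 TPM in control, a ratio of 0.760 (0.698 to 0.828).

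GARP, at the trans-Golgi network, and EARP, at recycling endosomes, share VPS51, VPS52 and VPS53 and differ in their last subunit. VPS51 had 75.5 TPM in metformin and 61.3 TPM in control, a ratio of 1.23 (1.16 to 1.31), and VPS52 had 119 TPM in metformin and 103 TPM in control, a ratio of 1.16 (1.11 to 1.21). VPS53 had 11.8 TPM in metformin and 11.1 TPM in control, a ratio of 1.06 (0.998 to 1.13). Both identity subunits were lower. VPS54, the GARP subunit, had 27.6 TPM in metformin and 31.8 TPM in control, a ratio of 0.867 (0.812 to 0.926), and VPS50, the EARP subunit, had 16.4 TPM in metformin and 22.0 TPM in control, a ratio of 0.747 (0.693 to 0.805). With the GC and length trend removed, VPS51, VPS52 and VPS53 were at 0.12, 0.15 and -0.01, and VPS54 and VPS50 at -0.09 and -0.19. The median of all measured genes was then -0.08.

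Retromer is built from VPS35, VPS29 and either VPS26 paralogue. VPS29, which binds the regulators of the complex, had 106 TPM in metformin and 153 TPM in control, and its ratio of 0.695 (0.657 to 0.734) was the lowest of the 55 members, although VPS37C was lower with the GC and length trend removed, at -0.49 against -0.35 for VPS29. VPS35, the scaffold on which the others sit, had 80.3 TPM in metformin and 80.6 TPM in control, a ratio of 0.996 (0.964 to 1.03). VPS26A had 49.1 TPM in metformin and 51.8 TPM in control, a ratio of 0.948 (0.899 to 0.9998), and VPS26B had 44.6 TPM in metformin and 42.4 TPM in control, a ratio of 1.05 (0.989 to 1.12). The lower sum of the complex, 280 TPM in metformin and 328 TPM in control, lay almost wholly in VPS29. The gene, NCBI ID 51699, spans chr12:110929328-110939945 (hg19, minus strand) and overlapped no other listed gene.

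Sorting nexins carry cargo with or beside retromer, and 5 of the 6 were below 0, with a median of -0.18. Over all measured genes 40.3% lay above 0 and the median was -0.08. Of the 5, SNX5 was close to 0, at -0.0099. SNX3, which brings retromer to membranes for the return of Wntless, was the most abundant member of all, with 265 TPM in metformin and 326 TPM in control, a ratio of 0.812 (0.783 to 0.842). SNX27, which returns cargo with PDZ-binding tails to the surface, had 16.5 TPM in metformin and 19.6 TPM in control, a ratio of 0.844 (0.785 to 0.907). The membrane-bending nexins form mixed pairs of SNX1 or SNX2 with SNX5 or SNX6. SNX1 had 30.1 TPM in metformin and 25.5 TPM in control, a ratio of 1.18 (1.12 to 1.24), while SNX2 had 23.6 TPM in metformin and 27.5 TPM in control, a ratio of 0.858 (0.808 to 0.912). SNX5 had 117 TPM in metformin and 118 TPM in control, a ratio of 0.993 (0.948 to 1.04), and SNX6 had 59.0 TPM in metformin and 65.8 TPM in control, a ratio of 0.897 (0.850 to 0.947). The low median of the nexins did not hold without the GC and length trend, where it was 0.01 with 3 of 6 above 0, and SNX3 stood at -0.17.

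The VPS13 proteins are long bridges that move lipid between organelles, and their 4 genes are among the least abundant members. VPS13A, mutated in chorea-acanthocytosis, had 18.5 TPM in metformin and 23.4 TPM in control, a ratio of 0.793 (0.759 to 0.828). VPS13B, mutated in Cohen syndrome, had 17.8 TPM in metformin and 16.6 TPM in control, a ratio of 1.07 (1.02 to 1.13), and VPS13C, found at contacts with late endosomes, had 16.2 TPM in metformin and 14.7 TPM in control, a ratio of 1.11 (1.05 to 1.17). VPS13D, which acts at mitochondria and peroxisomes, had 13.1 TPM in metformin and 12.5 TPM in control, a ratio of 1.05 (0.991 to 1.10). VPS13A, with 36.8% GC, was thus the single lower member of this family, at -0.32 on the log2 scale. With the GC and length trend removed it was at -0.17. VPS13B, VPS13C and VPS13D were then at 0.12, 0.25 and 0.0037.

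In some families the shares of the paralogues differed between the libraries while the summed TPM of the family was close to control. CHMP2A made up 85.9% of the CHMP2 TPM in metformin and 79.6% in control, with a family ratio of 1.07. The counting intervals of the CHMP2A and CHMP2B ratios did not overlap, but they cover the counting of reads only. At the members' levels, 74.1% of measured genes had an interval that did not include 1. The CHMP2A and CHMP2B transcripts have 55.8% and 35.2% GC. With the GC and length trend removed their differences were 0.10 for CHMP2A and -0.16 for CHMP2B. Without that correction they were 0.21 for CHMP2A and -0.42 for CHMP2B. SNX1 was the larger of the SNX1 and SNX2 pair in metformin, at 56.1%, and the smaller in control, at 48.2%, with a family ratio of 1.01. With that correction SNX1 was at 0.25 and SNX2 turned to 0.018. VPS13A had the largest share of its family in both, 28.2% in metformin and 34.8% in control, with a family ratio of 0.977. Its difference was -0.32 as reported and -0.17 with that correction. The VPS4 pair was the opposite case, with VPS4A at 72.4% in metformin and 72.5% in control. CHMP4B held 73.8% of the CHMP4 TPM in metformin and 76.5% in control, and CHMP4C 5.64% in metformin and 4.33% in control.

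**Figure D4:**
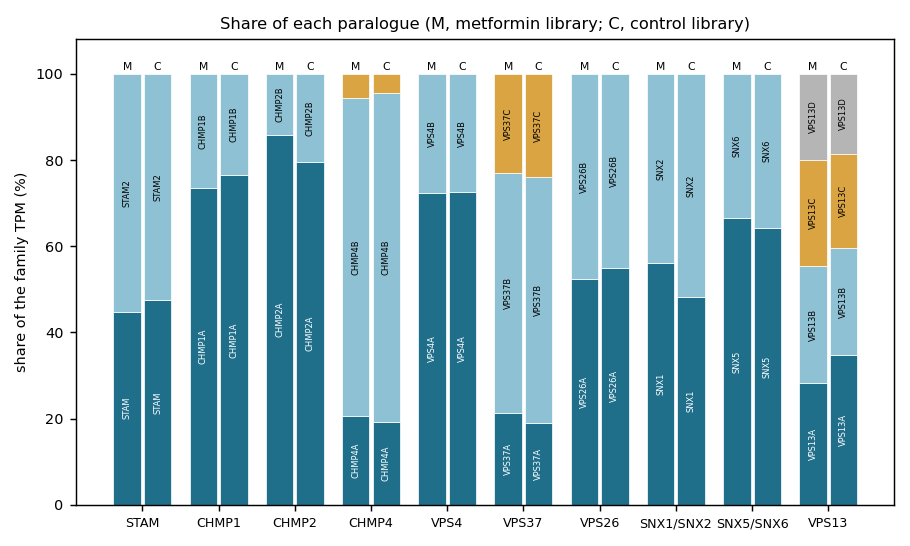
Share of the family TPM in percent held by each paralogue, in the metformin library (left bar, M) and the control library (right bar, C). The CHMP2A share is 85.9% in metformin and 79.6% in control, and the VPS4A share is 72.4% in metformin and 72.5% in control (the unlabelled CHMP4 segment is CHMP4C).

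A feature the members shared with the transcriptome was a dependence on transcript base composition. Across the 55 members, which are not independent replicates and share their libraries, the difference and the GC content of the canonical transcript had a Spearman correlation of 0.43, beside 0.35 over 13185 measured genes. Of the 15 members under 40% GC, 4 lay above 0, beside 18.1% of all genes of that class. Their median was -0.15, beside -0.26 over the class. Of the 19 members from 40% to under 50% GC, 11 lay above 0, beside 33.3% of all genes of that class. The medians there were 0.03 over members and -0.12 over all genes. Of the 21 members at 50% GC or more, 15 lay above 0, beside 53.8% of all genes of that class. Their median was 0.15, beside 0.03 over the class. Of the lowest members, VPS29, VTA1 and CHMP2B have 39.1%, 37.8% and 35.2% GC, and of the highest, VPS28 has 61.5% and CHMP4C 45.0%. With the trend removed the difference was -0.35 for VPS29, -0.28 for VTA1, -0.16 for CHMP2B and 0.56 for CHMP4C. The part of base composition in single values was not tested further.

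**Figure D5:**
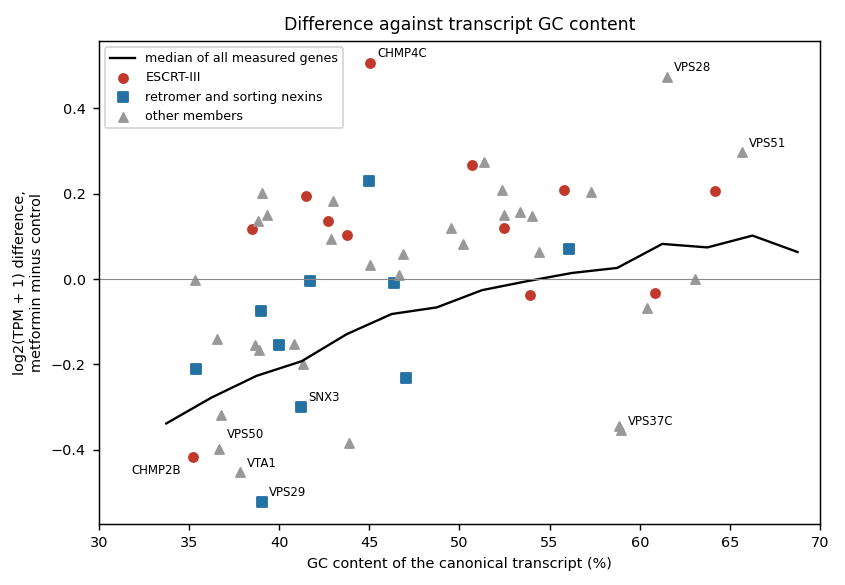
Difference of log2(TPM + 1), metformin minus control, against the GC content of the canonical transcript in percent, for the 55 members by complex; the line is the median of all measured genes in bins of 2.5% GC. The median line climbs with GC content, and 8 of the 9 members of the sorting nexins and retromer under 50% GC lie below 0. Of all measured genes, 18.1% of those under 40% GC and 33.3% of those from 40% to under 50% lie above 0.

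Some endosomal and lysosomal genes are known targets of TFEB, a transcription factor that binds the palindrome CACGTG, most strongly when it is preceded by GT and followed by AC. RefSeq promoter windows of 300 bases (GRCh38.p14, 250 before to 50 after the start) were matched for 42 of the members. CACGTG occurred in 7 of them, CHMP4A, PDCD6IP, VPS11, VPS16, VPS37B, VPS50 and VPS8, or 16.7%, beside 10.4% of the 10898 windows of measured genes and 7.43% of all 27305 windows. These 7 had differences from -0.40 to 0.27 with a median of 0.18, and the 35 other members with a window a median of -0.0004. Medians of all measured genes with and without CACGTG were not computed. With the GC and length trend removed, CHMP4A, PDCD6IP, VPS11, VPS16 and VPS8 were at 0.23, 0.35, 0.08, 0.09 and 0.26. VPS37B and VPS50 were then at -0.48 and -0.19, and the median over all members was 0.06. The form with GT before and AC after was found in CHMP4A alone, beside 0.780% of the windows of measured genes. TGATGNAA, the letters bound by ATF4 with a partner, was sought on both strands and was in 0 of the 42, beside 1.55% of the windows of measured genes. A match describes the letters only. Of the 7 members with CACGTG, VPS37B and VPS50 were lower in metformin, at -0.34 and -0.40, and the others were higher. The windows of VPS37B and VPS50 are not shown, so those printed below with CACGTG are all of members higher in metformin. The windows of CHMP4A (chr14:24213439-24213738, minus strand), of the tether subunits VPS11 (chr11:119067568-119067867, plus strand) and VPS8 (chr3:184811916-184812215, plus strand), and of VPS29 (chr12:110502062-110502361, minus strand), the member with the lowest ratio, are given 5′ to 3′ with CACGTG in capitals, to show members that hold it beside one that does not.
CHMP4A: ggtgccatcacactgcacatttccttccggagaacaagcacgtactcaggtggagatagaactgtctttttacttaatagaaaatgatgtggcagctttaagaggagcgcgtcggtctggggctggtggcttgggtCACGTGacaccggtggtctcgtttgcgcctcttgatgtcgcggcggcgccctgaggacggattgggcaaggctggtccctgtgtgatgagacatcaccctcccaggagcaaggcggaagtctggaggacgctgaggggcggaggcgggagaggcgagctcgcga
VPS11: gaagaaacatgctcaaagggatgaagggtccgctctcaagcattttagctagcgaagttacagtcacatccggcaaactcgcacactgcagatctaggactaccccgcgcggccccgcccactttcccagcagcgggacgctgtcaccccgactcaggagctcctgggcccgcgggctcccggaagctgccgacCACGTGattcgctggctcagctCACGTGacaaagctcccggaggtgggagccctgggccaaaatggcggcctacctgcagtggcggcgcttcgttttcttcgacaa
VPS8: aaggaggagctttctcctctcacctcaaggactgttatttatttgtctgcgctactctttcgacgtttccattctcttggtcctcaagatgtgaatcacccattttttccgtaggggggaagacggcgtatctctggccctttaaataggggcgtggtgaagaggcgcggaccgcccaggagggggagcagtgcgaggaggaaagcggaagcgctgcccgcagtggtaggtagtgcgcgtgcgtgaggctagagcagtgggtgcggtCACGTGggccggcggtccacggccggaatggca
VPS29: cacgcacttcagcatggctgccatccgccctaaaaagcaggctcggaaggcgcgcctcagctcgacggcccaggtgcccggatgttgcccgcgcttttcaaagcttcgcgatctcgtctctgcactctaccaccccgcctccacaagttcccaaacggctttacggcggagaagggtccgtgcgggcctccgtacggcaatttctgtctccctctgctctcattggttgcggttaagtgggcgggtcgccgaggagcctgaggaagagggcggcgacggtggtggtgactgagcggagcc

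Other genes of endosomal sorting, 81 in all, were partners of ESCRT, tethers, partners of retromer, the remaining sorting nexins and cargo receptors. Of the 75 measured, 40 lay above 0, beside 40.3% of all measured genes, and 35 below. Their median was 0.03, beside -0.08. By log2(TPM + 1), 0 were past 2-fold, 1 was higher by 1.5-fold or more, beside 5.40% of all measured genes, and 1 was lower, beside 7.03%. The 3 highest were MVB12B, an ESCRT-I subunit, with 11.7 TPM in metformin and 7.31 TPM in control, VPS9D1 with 11.3 TPM in metformin and 7.22 TPM in control, and SNX15 with 46.1 TPM in metformin and 32.4 TPM in control. The 3 lowest were COMMD9, a subunit of the COMMD ring that works with retriever, with 14.4 TPM in metformin and 22.9 TPM in control, WLS, which encodes the SNX3 and retromer cargo Wntless, with 92.3 TPM in metformin and 135 TPM in control, and SNX13 with 11.7 TPM in metformin and 17.4 TPM in control. MVB12B was higher by 1.61-fold (1.43 to 1.81), and COMMD9 stood at 0.627 of control (0.563 to 0.698).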

How the data were processed

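RNA of H1299 cells with and without 5 mM metformin was sequenced as 1 library each with the TruSeq Stranded mRNA LT kit on an Illumina sequencer, per the labels' protocols. Those protocols name Bowtie2 and hg19, and the submitters' processing notes name Trimmomatic 0.38, HISAT2, hg19 and GRCh37. Which program made the abundances, and whether it used the strand, was not given in the sources used here, so reads of genes that overlap on opposite strands may be mixed. Per the file headers, the authors deposited TPM, FPKM and coverage (mean read depth over exons) per gene, and TPM summed to 1000000 in each library.

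Rows of a gene ID were summed, and symbols came from RefSeq (27559 IDs matched, 126 not). The difference is log2(TPM + 1) in metformin minus control (pseudocount 1), so folds of low genes are understated on that scale; ratios in the text are plain TPM ratios. Genes were measured at 1 TPM or more in at least 1 library. Aligned bases came from the largest ratio of coverage to FPKM, and 202 bases per read pair from the most common base total of genes spanning up to 2000 bases (29 of 556 in metformin, 24 of 568 in control). Read pairs per gene came from FPKM and the GENCODE 44 canonical transcript length on GRCh37 (sum 107% of the total in each library), and gave Clopper-Pearson intervals. The GC and length trend was a quadratic fit over genes with both values (93.7% of measured). Of the members, 14 overlap another listed gene, 4 of them a gene at 1 TPM or more on the other strand.

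The members and lists were chosen with earlier results of these data known. Values are given for every member, ratios for most; of the other sorting genes the 3 highest and 3 lowest are named, while the promoters shown were picked after values were seen. Steps were tested on simulated data that held planted folds and counting noise alone. Variation between cultures, a GC trend and error in the estimated read pairs were not simulated. Python 3.11.15, pandas 2.3.3, SciPy 1.17.1 and statsmodels 0.14.6 were used.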

Additional observations from a re-analysis of the deposited data

How the results depend on the processing

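Each value was recomputed under 10 alternatives, 9 of them planned; coverage per aligned base was chosen after seeing the data. No paired analysis was possible because there was 1 library per group, and no library could be left out. No member was past 2-fold under any of the 10, and none past 1.5-fold except CHMP4C (0.60) when differences were centred on the median of genes with 10 TPM or more in both libraries, a shift of -0.09, which made the count 1. That centring put the median over members at 0.15, ESCRT-0 at 0.087, ESCRT-II at 0.15, the VPS4 and ALIX group at 0.24 and VPS13 at 0.17. Trimmed mean scaling put them at 0.13, 0.072, 0.14, 0.22 and 0.15. The centring adds a constant to every gene by construction and the scaling a nearly constant amount, and the median over members stayed 0.14 above that of all measured genes under each. ESCRT-0, at -0.0016 as reported, was at 0.030 with deposited FPKM and with coverage, and at 0.018 without the GC and length trend. That correction also turned 10 single members in sign, and the medians of ESCRT-I to 0.07, ESCRT-II to -0.0034, retromer to 0.02 and GARP/EARP to -0.01; the cause was not tested. Of the 550 single-member values under an alternative, 79 lay outside the counting interval of the ratio. The GC and length correction gave 35 of these, the centring 28 and the trimmed mean scaling 14. Dropping the filter on low values, or asking for a mean TPM of 10 or more, could not alter a value. The lowest mean TPM of a member was 10.4. Adding the read-through row could alter CHMP3 only, so the share outside is no measure of stability. Depth limits CHMP4C, VPS33B and CHMP6 most, and culture variation cannot be estimated.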

Other observations

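Among the other endosomal sorting genes, partners of ESCRT had the highest median difference, 0.13, with 12 of 18 measured genes above 0. Tethers had the lowest, -0.070, with 3 of 6, and cargo receptors were close to it, at -0.067 with 2 of 7. Over all measured genes the median was -0.08, with 40.3% above 0. Of the partners of ESCRT above 0, TOM1, MVB12A, CC2D1A and PTPN23 have 61.0%, 64.6%, 64.4% and 62.1% GC. MITD1 and TOM1L1, also above 0, have 39.1% and 40.5%. Among all genes at 50% GC or more, 53.8% lay above 0, with a median of 0.03. The part of base composition in these medians was not tested. The 23 partners of retromer and retriever, which include the COMMD and WASH subunits, had a median of 0.03 with 13 above 0. COMMD8 and COMMD10 had 35.3 and 7.02 TPM in metformin and 49.5 and 9.98 TPM in control. Their transcripts have 34.7% and 37.4% GC, and the median of all genes under 40% GC was -0.26. The tether TGFBRAP1, the CORVET counterpart of VPS39, had 22.6 TPM in metformin and 27.3 TPM in control, a ratio of 0.828 (95% counting interval 0.776 to 0.884), on the other side of control from VPS39 and VPS8. These genes were picked after their values were seen.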
